A study of Homo sapiens with 28 samples.

Results

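Hairpin 64 is a lentiviral short hairpin RNA against MBNL1, and its response in MOLM13 cells at day 12 was set against its response at day 4. The members are 12 of the 28 libraries of the series, chosen by their labels: MOLM13 cells with hairpin 64 at day 12, with the non-targeting hairpin shNT at day 12, with hairpin 64 at day 4 and with shNT at day 4, 3 libraries each. MOLM13 is an acute myeloid leukemia cell line that carries the MLL-AF9 translocation, which all 12 libraries share. All cells were transduced with lentivirus and selected with puromycin, for 72 h in the day-4 groups. Both days rest on a single hairpin in a single cell line, so a response to the knockdown and a response to that hairpin sequence cannot be told apart here. The day-12 libraries had their own shNT controls and were sequenced on a NovaSeq, the day-4 libraries on a HiSeq, so day and sequencer changed together and cannot be told apart. The question was which responses to hairpin 64 lasted, which appeared late and which were transient.

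MBNL1 is an RNA-binding protein that decides whether an alternative exon or intron stays in the mature transcript. It binds short motifs with a GC between pyrimidines. Bound before an exon it tends to favour skipping of that exon, and bound after it, inclusion. It also regulates exons of its own transcript. In myotonic dystrophy, MBNL proteins are trapped on expanded repeats and adult splicing patterns are lost. In MLL-rearranged leukemia the fusion protein keeps blasts in an immature myeloid state, and granule enzymes, scavenger receptors and the phagocyte oxidase mark steps of maturation towards granulocytes and macrophages.

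Expression was given per gene as RPKM, reads scaled to the length of the gene model and to the mapped reads of the library, so levels can be compared between genes. Splicing was given as PSI, the percent of junction reads that include an exon or retain an intron. Relative sequencing depth, read from the steps between low RPKM values, was 0.820 to 1.26 at day 12 and 0.352 to 0.833 at day 4. The libraries of replicate number 3 at day 4, hairpin 64 and shNT alike, stood apart before any comparison. They were the shallowest, at 0.352 and 0.409, and 913 genes lay over 2-fold from the other libraries of their group in both of them, against 138 genes for number 1 and 79 for number 2 at day 4 and 0 for every number at day 12. The 25 genes of a mitosis list summed to 104 RPKM in hairpin 64 number 3 and to 229 in shNT number 3, where the other day-4 libraries gave 676 and 610 with hairpin 64 and 928 and 866 with shNT. Genes of HLA class II presentation summed to 185 and 713 RPKM in the number 3 pair, hairpin 64 and shNT, and to 108.5 or less in each of the other 10 libraries. Same-numbered day-4 libraries were therefore treated as pairs, and results are given with and without the number 3 pair. Markers of the leukemic blasts summed to between 1142 and 4326 RPKM, led by LYZ, while erythroid and megakaryocytic markers summed to 3.26 RPKM or less and epithelial and stromal markers to 8.92 or less. Lymphoid markers summed to between 43.7 and 93.6 RPKM, nearly all from NKG7.

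MBNL1 itself was held down at both days. At day 12 it had 4.13, 4.65 and 4.42 RPKM with hairpin 64, against 26.5, 26.9 and 25.6 RPKM with shNT. At day 4 MBNL1 had 2.94, 2.96 and 3.80 RPKM with hairpin 64, against 18.8, 19.97 and 28.6 RPKM with shNT. The groups did not overlap at either day. On the log2(RPKM + 1) scale the difference was -2.34 at day 12 and -2.45 at day 4, and the difference between days was 0.11 ± 0.09 (standard error; limma, adjusted p = 0.449). The paralog MBNL2 was at 0.733 RPKM or less and MBNL3 at 0.244 or less in all 12 libraries, below the minimum of 1 RPKM for a test.

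An exon of MBNL1 itself gave a first view of the splicing response. This exon, chr3:152164493-152164546 on the + strand of GRCh37, is 54 bases long. It was included at 83.4%, 85.2% and 93.8% with hairpin 64 at day 12, against 9.3%, 8.2% and 9.0% with shNT, and at 91.3%, 86.5% and 79.7% with hairpin 64 at day 4, against 12.3%, 13.1% and 13.0% with shNT. Inclusion was thus the minor form in every shNT library and the major form in every hairpin 64 library, by 78.6 points at day 12 and 73.0 points at day 4. Its sequence, with 80 bases on each side, is shown because MBNL motifs crowd before it. In this and the sequences that follow, capitals mark matches to 4-base motifs on the strand of the gene, namely TGCT along with the related form TGCC, and CGCT along with the related form CGCC, while adjoining matches run together, and the sequence reads 5′ to 3′.
MBNL1: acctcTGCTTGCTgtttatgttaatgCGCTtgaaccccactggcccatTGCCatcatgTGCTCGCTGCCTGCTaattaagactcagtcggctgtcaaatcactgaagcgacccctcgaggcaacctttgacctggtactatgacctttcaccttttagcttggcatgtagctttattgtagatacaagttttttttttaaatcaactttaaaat
The 80 bases before the exon held 8 matches, and the exon and the 80 bases after it held 0.

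Splicing events were tested in 20720 junction clusters, groups of junctions that share an end, with an event called at an adjusted p under 0.05 and a difference over 10 points. Hairpin 64 changed 326 clusters at day 12 (1.57% of those tested) and 593 at day 4 (2.86%), and 220 were called at both days. Of the 628 events called at day 12, 608 had the same sign at day 4 and 448 were called there. A lasting response, called in the same direction at both days with no called difference between them, was seen in 215 clusters (1.04%). Without the number 3 pair of day 4 there were 193 lasting clusters, 162 of them shared. The difference between days itself was called in 21 clusters (0.101%), of which 12 had an event measured in all 12 libraries. Leaving out that pair again gave 21 clusters, of which 7 were shared. With pair terms at both days 0 clusters were called for a difference, so which clusters differed depended on the fit.

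Cassette exons made up most of the lasting splicing response. Inclusion was lower at both days in 102 clusters and higher in 54. BAZ2B, a bromodomain chromatin reader, lost a 27-base exon that was included at 10.1%, 12.7% and 8.0% with hairpin 64 at day 12, against 98.6%, 98.2% and 97.1% with shNT. At day 4 the values were 9.3%, 7.2% and 13.7% with hairpin 64, against 92.6%, 95.7% and 92.6% with shNT. Every shNT library thus included the exon almost always and every hairpin 64 library seldom did, with differences of -87.8 points at day 12 and -83.5 at day 4. PLD1, a phospholipase that makes phosphatidic acid, gave 1.4%, 4.0% and 5.0% with hairpin 64 at day 12, against 96.6%, 96.7% and 96.6% with shNT. At day 4 PLD1 gave 9.1%, 0.0% and 11.5% with hairpin 64, against 81.8%, 88.9% and 100% with shNT. CIT, a kinase of cytokinesis, was measured in 10 of the 12 libraries, and both day-4 libraries of number 3 were missing from its fit. Its exon fell by 87.1 points at day 12 and by 89.1 points at day 4. CCDC88C, a scaffold of Wnt and G protein signalling, lost an exon by 92.0 points at day 12 and by 89.7 at day 4.

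More inclusion was largest, by the smaller of its values at both days, for EXOC1, a subunit of the exocyst that tethers secretory vesicles. Its 45-base exon was included at 80.5%, 86.7% and 90.6% with hairpin 64 at day 12, against 0.0%, 3.9% and 0.8% with shNT. At day 4 the exon was included at 89.8%, 92.7% and 91.3% with hairpin 64, against 3.1%, 0.0% and 17.3% with shNT. The exon was nearly absent from shNT libraries and present in most EXOC1 transcripts of hairpin 64 libraries, and the difference was 84.4 points at day 12 and 84.5 at day 4. TRERF1, a transcriptional regulator, gained an exon by 85.3 points at day 12 and 78.9 at day 4, and NUMB, an inhibitor of Notch signalling, by 73.6 and 58.7 points. DNM2, the dynamin that cuts endocytic vesicles from the membrane, exchanged neighbouring exons; DNM2 and NUMB were picked after their values were seen. The exon chr19:10908056-10908194 was included at 94.2%, 92.3% and 93.5% with hairpin 64 at day 12, against 32.5%, 30.7% and 33.1% with shNT. At day 4 the exon was included at 91.7%, 91.5% and 94.9% with hairpin 64, against 30.6%, 27.5% and 32.2% with shNT. The exon before it moved the other way, by -70.9 points at day 12 and -64.4 points at day 4.

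Of the lasting exons described by name and short enough to print, the 3 with the largest gain and the 3 with the largest loss are given to set where the motifs lie beside the direction of the change. MBNL1 is shown above, and the other exons follow with 80 bases on each side. The exons are chr4:56755054-56755098 (+) for EXOC1, chr19:10908056-10908194 (+) for DNM2, chr12:120148854-120148898 (-) for CIT, chr2:160253585-160253611 (-) for BAZ2B and chr3:171404475-171404588 (-) for PLD1, all in GRCh37.
EXOC1, more inclusion: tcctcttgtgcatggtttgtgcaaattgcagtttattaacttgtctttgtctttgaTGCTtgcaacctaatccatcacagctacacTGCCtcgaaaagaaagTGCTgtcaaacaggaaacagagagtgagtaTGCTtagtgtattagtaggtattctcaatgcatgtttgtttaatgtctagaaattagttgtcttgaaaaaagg
DNM2, more inclusion: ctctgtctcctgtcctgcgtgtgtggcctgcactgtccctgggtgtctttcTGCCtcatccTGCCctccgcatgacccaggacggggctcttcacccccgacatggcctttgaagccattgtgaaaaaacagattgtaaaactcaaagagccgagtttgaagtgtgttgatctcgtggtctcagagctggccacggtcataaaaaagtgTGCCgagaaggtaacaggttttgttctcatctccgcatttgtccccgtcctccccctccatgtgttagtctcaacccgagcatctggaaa
CIT, less inclusion: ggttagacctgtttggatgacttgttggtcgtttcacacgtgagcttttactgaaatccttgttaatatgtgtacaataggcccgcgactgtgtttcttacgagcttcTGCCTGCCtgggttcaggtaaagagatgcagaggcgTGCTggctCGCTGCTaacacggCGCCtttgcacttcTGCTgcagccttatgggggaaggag
BAZ2B, less inclusion: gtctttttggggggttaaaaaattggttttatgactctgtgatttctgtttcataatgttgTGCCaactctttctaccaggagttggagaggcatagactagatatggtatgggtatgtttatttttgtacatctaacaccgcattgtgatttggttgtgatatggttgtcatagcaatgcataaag
PLD1, less inclusion: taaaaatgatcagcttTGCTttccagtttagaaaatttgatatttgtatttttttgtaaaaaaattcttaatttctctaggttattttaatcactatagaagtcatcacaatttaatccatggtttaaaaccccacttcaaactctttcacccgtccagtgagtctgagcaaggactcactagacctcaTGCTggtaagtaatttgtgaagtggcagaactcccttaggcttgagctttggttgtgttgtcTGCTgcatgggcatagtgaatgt
CIT held 5 matches in the 80 bases after its exon and 0 before it, a reverse of the layout around the MBNL1 exon. BAZ2B and PLD1 held 1 match each in the 80 bases before the exon, so the layout of CIT was not shared by all exons with less inclusion.

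Counted over all lasting exons found in the annotation, the window before the exon held motifs more often where inclusion was gained than where it was lost. The window after it differed less, and held them somewhat less often where inclusion was gained. Among 56 exons with more inclusion, 39.3% held 4 or more matches in the 100 bases before the exon and 28.6% in the 100 bases after it. Among 103 exons with less inclusion, 9.7% did so before and 33.0% after. Of all 12004 tested cassette exons, 6.6% held 4 or more before and 5.5% after. Within the exon itself 37.5% of exons with more inclusion held 4 or more, against 18.4% with less and 20.4% of all tested exons. At least 1 match before the exon was found for 92.9% of exons with more inclusion, 70.9% with less and 66.4% of all tested exons, and after it for 76.8%, 87.4% and 65.9%. These are counts of letters in a window and say nothing of binding. The lasting exons also kept the reading frame more often by count: length was a multiple of 3 in 40 of 56 exons with more inclusion (71.4%), in 75 of 103 with less (72.8%) and in 39.7% of all tested exons.

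**Figure D1:**
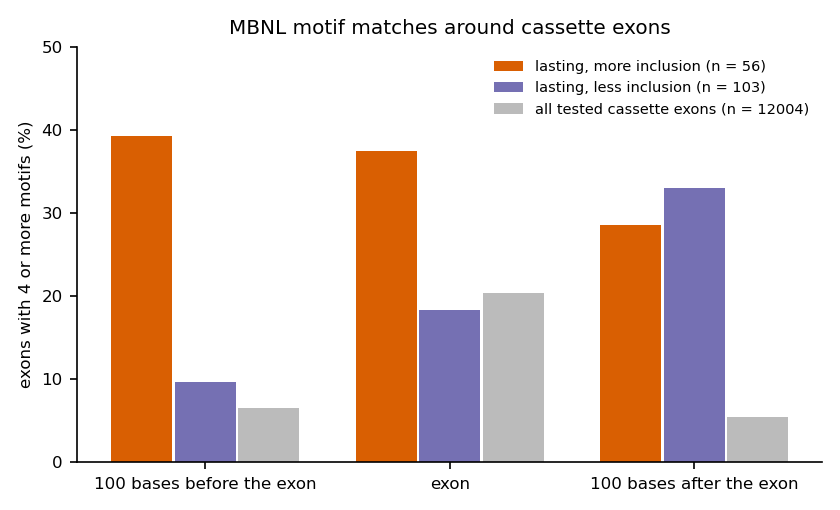
Percent of cassette exons with 4 or more MBNL motif matches (vertical axis) in the 100 bases before the exon, in the exon and in the 100 bases after it, for lasting exons with more inclusion (orange, n = 56), lasting exons with less inclusion (purple, n = 103) and all tested cassette exons (grey, n = 12004). Before the exon the bars stand at 39.3%, 9.7% and 6.6%, in the exon at 37.5%, 18.4% and 20.4%, and after it at 28.6%, 33.0% and 5.5%.

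Retained introns formed the other large group, higher at both days in 30 clusters and lower in 5. DOT1L, the H3K79 methyltransferase that MLL fusions recruit, was read as the complement of a junction that spans an intron boundary at chr19:2227361. This share of reads not using the junction was 88.4%, 88.7% and 90.1% with hairpin 64 at day 12, against 35.9%, 33.3% and 38.3% with shNT. At day 4 the values were 85.7%, 90.4% and 73.3% with hairpin 64, against 42.7%, 54.2% and 40.4% with shNT. The complement was higher by 53.2 points at day 12 and 37.3 at day 4, with no overlap at either day, and the difference between days was 15.8 ± 2.9 points (limma, adjusted p = 0.32). The deposited mirror event, which follows the DOT1L boundary itself, gave lower levels, 25.7%, 27.8% and 39.3% with hairpin 64 at day 12, against 9.14%, 9.65% and 10.7% with shNT. Level and size of the change thus depend on which junction is taken as the numerator. Without the number 3 pair of day 4 the mirror event rose by 21.1 points at day 12 and 22.0 at day 4. It was then called at neither day (limma, adjusted p = 0.081 and 0.11), while the complement was called at both. DOT1L and SETD1A events were picked after their values were seen. SETD1A, a catalytic subunit of H3K4 methyltransferase complexes, retained an intron at 15.4%, 21.6% and 19.4% with hairpin 64 at day 12, against 0.0%, 0.0% and 7.8% with shNT. At day 4 this intron was retained at 23.3%, 21.7% and 21.3% with hairpin 64, against 0.0% in each shNT library. Without the number 3 pair of day 4 the SETD1A intron was called at neither day (adjusted p = 0.075 and 0.050 at day 12 and day 4). RNA levels of these genes changed by less than the 1.5-fold size of a call at both days. On the log2(RPKM + 1) scale they gave 0.28 and 0.29 for DOT1L and 0.01 and 0.16 for SETD1A at day 12 and day 4. Without the number 3 pair DOT1L gave 0.28 and 0.25 (limma, adjusted p = 0.0066 and 0.024), a small rise below the call size. Introns of BICD2, a dynein adaptor, and TYK2, a cytokine receptor kinase, were retained more by 76.0 and 39.6 points at day 12 and by 74.4 and 44.3 points at day 4. The BICD2 and TYK2 values too are complements of a spliced junction. An intron of SRGAP2, a regulator of membrane shape, was retained less, by -53.7 points at day 12 and -53.1 at day 4. Exons of CD47, the surface signal against phagocytosis, were included more at both days. Events that follow inclusion junctions rose by 16.6 to 20.8 points at day 12 and 16.0 to 21.4 points at day 4. The complement of the skipping junction rose by 30.4 and 34.7 points. These 4 CD47 events were picked after their values were seen, and 1 of them was not called at day 4 without the number 3 pair (adjusted p = 0.0505).

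Few splicing responses differed between the days. Intron events were transient in 9 clusters and late in 3, and cassette exons transient in 3 and late in 1. FCGRT, the neonatal Fc receptor that recycles IgG, gave the largest difference among events measured in all 12 libraries. The deposited event set the spliced junction of a 680-base intron, chr19:50028034-50028713 on the + strand, against reads across an inner boundary at chr19:50028520. Its PSI was turned into the complement, the share of reads that did not use the spliced junction. That is not the share of reads across the boundary alone. This share was 8.5%, 10.3% and 12.5% with hairpin 64 at day 12, against 3.9%, 6.8% and 4.0% with shNT. At day 4 the share was 78.5%, 80.6% and 74.9% with hairpin 64, against 5.1%, 3.4% and 4.7% with shNT. All 3 day-4 hairpin 64 libraries were far above the other 9, and the difference between days was -68.0 ± 2.3 points (limma, adjusted p = 0.00059). It was called without the number 3 pair as well, and with pair terms at both days neither it nor any other event was. The ends of the intron are shown with the intron in capitals and 20 exon bases on each side in lower case, so that the splice sites of this event can be read.
FCGRT, 5′ end of the intron, chr19:50028014-50028113: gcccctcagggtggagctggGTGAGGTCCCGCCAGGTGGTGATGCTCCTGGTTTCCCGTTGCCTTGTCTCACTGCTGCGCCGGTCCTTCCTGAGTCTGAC
FCGRT, 3′ end of the intron, chr19:50028634-50028733: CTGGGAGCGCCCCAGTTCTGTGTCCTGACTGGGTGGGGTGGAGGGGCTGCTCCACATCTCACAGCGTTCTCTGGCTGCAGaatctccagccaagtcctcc
The window at the 5′ end held 5 motif matches and the window at the 3′ end 2.

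Other transient events followed. RELT, a receptor of the tumour necrosis factor family, retained an intron at 15.4%, 18.9% and 20.4% with hairpin 64 at day 4, against 0.0%, 1.8% and 2.3% with shNT, and at 0.0% in all 6 libraries of day 12. These RELT values are the complement of the spliced junction. Without the number 3 pair they rose by 16.3 points at day 4, and the mirror event by 10.3. DYNC1I2, an intermediate chain of cytoplasmic dynein, included a 60-base exon at 3.1%, 3.2% and 3.6% with hairpin 64 at day 12, against 0.0%, 3.0% and 0.9% with shNT. At day 4 DYNC1I2 exon inclusion stood at 20%, 25% and 41.7% with hairpin 64, against 0.0%, 5.6% and 18.9% with shNT. The number 3 libraries were the highest of both day-4 groups for DYNC1I2, each hairpin 64 library was above its same-numbered shNT library, and the difference between days was -18.8 ± 1.3 points (limma, adjusted p = 0.014). FAAH, a lipid hydrolase, retained an intron at 14.6%, 14.3% and 18.0% with hairpin 64 at day 12, against 15.4%, 19.5% and 15.6% with shNT. At day 4 its intron was retained at 31.6%, 26.8% and 30.0% with hairpin 64, against 0.0% in each shNT library. The FAAH difference between days was not called without the number 3 pair (adjusted p = 0.061), and neither was that of TMEM138 (adjusted p = 0.11).

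Late and enlarged events were fewer. ARHGEF1, an exchange factor for RhoA, included a 12-base exon at 0.7%, 0.6% and 1.3% with hairpin 64 at day 12, against 14.3%, 14.2% and 12.8% with shNT. At day 4 ARHGEF1 exon inclusion stood at 0.3%, 0.0% and 0.0% with hairpin 64, against 3.2%, 2.0% and 3.7% with shNT. The shNT level itself was thus higher at day 12 than at day 4, while hairpin 64 libraries were near 0 at both, and the difference between days was -10.0 ± 0.7 points (limma, adjusted p = 0.017). MLST8, a core subunit of mTOR complexes, included a 125-base exon at 96.6%, 97.0% and 97.7% with hairpin 64 at day 12, against 69.1%, 67.9% and 68.1% with shNT. At day 4 MLST8 exon inclusion stood at 98.5%, 97.9% and 95.8% with hairpin 64, against 81.3%, 85.4% and 83.7% with shNT. Here too the shNT libraries differed between the days, and the difference of 14.9 ± 1.4 points (adjusted p = 0.048) was not called without the number 3 pair (adjusted p = 0.093). These exons and that of DYNC1I2 are shown as the late, enlarged and transient cassette exons measured in all 12 libraries, at chr19:42401464-42401475, chr16:2258211-2258335 and chr2:172569277-172569336, all on the + strand.
ARHGEF1, late: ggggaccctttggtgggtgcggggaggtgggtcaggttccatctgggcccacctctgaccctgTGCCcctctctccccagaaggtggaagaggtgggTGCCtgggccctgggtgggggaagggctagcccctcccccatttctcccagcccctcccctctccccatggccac
MLST8, larger at day 12: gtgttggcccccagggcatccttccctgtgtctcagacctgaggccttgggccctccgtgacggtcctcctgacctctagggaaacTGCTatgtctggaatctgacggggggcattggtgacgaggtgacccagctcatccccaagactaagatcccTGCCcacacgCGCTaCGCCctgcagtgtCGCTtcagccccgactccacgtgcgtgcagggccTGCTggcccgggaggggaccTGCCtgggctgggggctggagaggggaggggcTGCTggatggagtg
DYNC1I2, transient: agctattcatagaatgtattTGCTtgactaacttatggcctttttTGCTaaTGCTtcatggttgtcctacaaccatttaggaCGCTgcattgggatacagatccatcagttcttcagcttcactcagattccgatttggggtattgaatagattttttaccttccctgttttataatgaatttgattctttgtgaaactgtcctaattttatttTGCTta
Capitals mark the same 4-base motifs as above.

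Some of the remaining events turned on reads of a single day, while YBX3, IKBKG and CAPN10 shifted in opposite directions at day 12 and day 4. Introns of HEATR5B, at 20.8%, 20% and 25.7%, and RNF213, at 12.8%, 10.1% and 13.5%, were retained with hairpin 64 at day 12 and listed at 0.0% in the other 9 libraries. Neither was called without the number 3 pair of day 4 (adjusted p = 0.10 and 0.11), although its libraries were at 0.0% too. YBX3, a cold shock domain RNA-binding protein, had an intron-retention event at 0.0% in each hairpin 64 library of day 12, against 13.3%, 12.4% and 12.3% with shNT. At day 4 YBX3 stood at 20.6%, 18.0% and 14.8% with hairpin 64, against 12.4%, 13.4% and 11.3% with shNT. IKBKG, the regulatory subunit of the IκB kinase, gave differences of opposite sign, with exon inclusion of 90.4%, 91.4% and 93.0% with hairpin 64 at day 12, against 98.9%, 98.0% and 98.1% with shNT. At day 4 IKBKG inclusion was 98.7%, 100% and 97.9% with hairpin 64, against 88.9%, 89.6% and 91.5% with shNT, a difference between days of -15.6 ± 1.3 points (limma, adjusted p = 0.034). An alternative donor of CAPN10, a calpain protease, differed between days by 11.2 points. Called events of ARHGEF17, RMDN1, EP400NL, SIGLEC6, LRP5L, ZNF280C, AMPD3, TUBG2 and TOM1L2 were measured in 9 to 11 libraries. Their missing libraries dropped out of the fit, so the day-4 response could rest on a single pair.

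**Figure D2:**
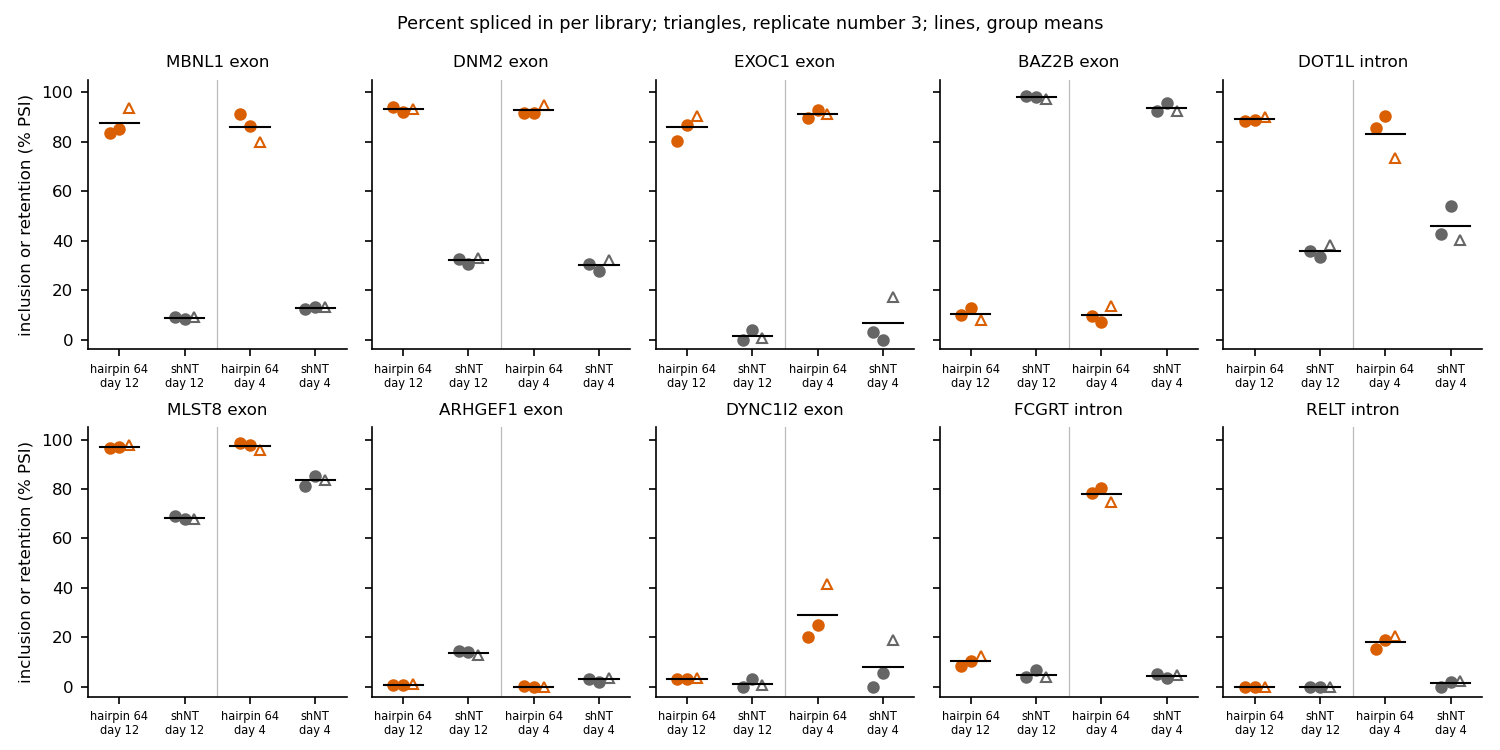
Percent spliced in for 10 events in each of the 12 libraries, as points for replicate numbers 1 and 2, open triangles for number 3 and lines for group means, with hairpin 64 in orange and shNT in grey. MBNL1, DNM2, EXOC1, BAZ2B and DOT1L separate hairpin 64 from shNT at both days, whereas the FCGRT and RELT introns separate them most widely at day 4, where hairpin 64 stands at 74.9% to 80.6% and 15.4% to 20.4%.

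Averaged over all events of a kind, mean intron retention was 10.7%, 10.1% and 10.2% with hairpin 64 at day 12, against 8.78%, 9.13% and 9.23% with shNT. At day 4 mean retention was 10.9%, 9.75% and 11.6% with hairpin 64, against 7.82%, 8.16% and 9.17% with shNT. Hairpin 64 libraries were higher at both days, and the mean same-numbered difference was 1.31 points at day 12 and 2.34 at day 4, a gap of -1.03 that an exact permutation test over the 6 differences did not separate (two-sided p = 0.2, with 0.1 the smallest that 3 against 3 allows). For mean cassette exon inclusion the same-numbered difference was -0.60 points at day 12 and -1.09 at day 4, a gap of 0.48 (exact permutation p = 0.1).

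Expression was tested for 10583 genes with a mean of at least 1 RPKM in a group, and a gene was called at an adjusted p under 0.05 with a 1.5-fold change on the log2(RPKM + 1) scale. At day 12 hairpin 64 raised 330 genes (3.12% of those tested) and lowered 229 (2.16%). At day 4 hairpin 64 raised 431 (4.07%) and lowered 377 (3.56%). In the same direction at both days 298 genes were called, and 0 were called in opposite directions. The response itself differed between days for 158 genes, being higher at day 12 for 84 (0.794%) and lower for 74 (0.699%). These calls depended on the pairing of day-4 libraries: without pair terms 4 genes were called for a difference, with pair terms at both days 103, and without the number 3 pair 221. The median standard deviation within day-4 groups was 0.251 on the log2 scale and 0.0936 after pairing, against 0.0646 at day 12.

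By these calls 48 genes were late (0.454%), called at day 12 and for the difference but not at day 4, 60 were transient (0.567%), called at day 4 and for the difference but not at day 12, and 277 were lasting (2.62%). A further 17 lasting responses were larger at day 12 and 4 were smaller. The remaining 213 genes called at day 12 alone and 450 called at day 4 alone had no called difference, so no timing can be read for them. Libraries of hairpin 64 and shNT did not overlap at day 12 for all 277 lasting genes and for 47 of the 48 late genes, where 58.5% of all tested genes did not overlap. At day 4 they did not overlap for 179 lasting and 15 transient genes, against 17.9% of all tested genes. Without the number 3 pair 56 genes were late (37 shared), 82 transient (29 shared) and 278 lasting (238 shared).

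**Figure D3:**
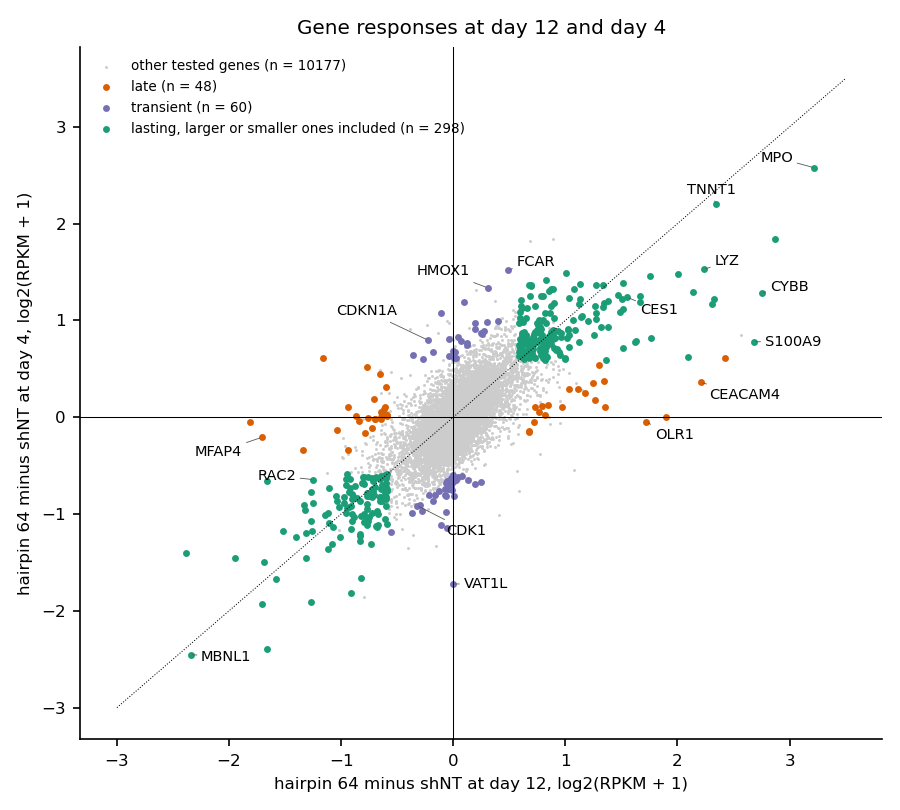
Response to hairpin 64, as hairpin 64 minus shNT in log2(RPKM + 1), at day 12 (horizontal axis) and at day 4 (vertical axis) for 10583 tested genes, with late genes in orange (n = 48), transient genes in purple (n = 60), lasting genes in green (n = 298, with larger and smaller ones) and the dotted line where both days are equal. Late genes such as OLR1 lie along the horizontal axis, transient genes such as VAT1L along the vertical one, and CYBB and S100A9 lie below the dotted line.

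Lasting genes were higher in 164 cases and lower in 113. TNNT1, the slow skeletal troponin T, had 18.0, 17.6 and 15.5 RPKM with hairpin 64 at day 12, against 2.69, 2.26 and 2.73 RPKM with shNT. At day 4 TNNT1 had 18.8, 19.1 and 41.1 RPKM with hairpin 64, against 2.80, 3.02 and 10.3 RPKM with shNT. Both groups were higher in the number 3 pair of day 4 and yet each hairpin 64 library was above every shNT library, with a response of 2.34 at day 12 and 2.20 at day 4. CES1, a carboxylesterase of monocytes and macrophages, had 442, 428 and 424 RPKM with hairpin 64 at day 12, against 152, 147 and 140 RPKM with shNT. At day 4 CES1 had 444, 472 and 443 RPKM with hairpin 64, against 192, 199 and 184 RPKM with shNT. Its responses of 1.55 and 1.24 differed by 0.31 ± 0.07 (limma, adjusted p = 0.022), under the 1.5-fold size that a call asks for. Its pseudogene CES1P1 gave 1.47 and 1.26, and reads of near-identical copies may be shared between them. AOAH, which detoxifies lipopolysaccharide, gave 1.76 at day 12 and 1.46 at day 4, and MEFV, the pyrin inflammasome sensor, gave 1.34 and 1.37.

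Lasting falls included a proto-oncogene kinase and genes of trafficking and nucleotide supply. PIM1, a serine/threonine kinase of survival signalling, had 12.4, 10.1 and 8.19 RPKM with hairpin 64 at day 12, against 33.7, 35.5 and 35.1 RPKM with shNT. At day 4 PIM1 had 10.6, 11.0 and 36.8 RPKM with hairpin 64, against 34.1, 31.8 and 101 RPKM with shNT. The groups overlapped at day 4 through the number 3 pair, though each hairpin 64 library was below its same-numbered shNT library, and the response was -1.69 at day 12 and -1.49 at day 4. ARL2, a small GTPase of tubulin folding, had 2.78, 2.81 and 2.42 RPKM with hairpin 64 at day 12, against 10.7, 11.0 and 11.1 RPKM with shNT. At day 4 ARL2 had 2.81, 2.96 and 1.75 RPKM with hairpin 64, against 11.3, 12.0 and 13.4 RPKM with shNT, so no library crossed at either day. DBNL, an actin-binding adaptor of endocytosis, gave -1.58 and -1.68, TK1, the cytosolic thymidine kinase, -1.31 and -1.46, and ALDH1A3, which makes retinoic acid, -1.66 and -2.39 at day 12 and day 4.

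Of the 17 lasting responses that were larger at day 12, 14 were rises. CYBB, the catalytic subunit of the phagocyte NADPH oxidase, had 23.6, 21.8 and 24.6 RPKM with hairpin 64 at day 12, against 2.30, 2.40 and 3.21 RPKM with shNT. At day 4 CYBB had 6.93, 6.90 and 5.88 RPKM with hairpin 64, against 1.87, 1.90 and 2.59 RPKM with shNT. The shNT levels were alike at both days while the hairpin 64 level was higher at day 12, and the responses of 2.75 and 1.28 differed by 1.47 ± 0.17 (limma, adjusted p = 0.0041). CD36, a scavenger receptor for lipids, had 11.5, 11.6 and 13.1 RPKM with hairpin 64 at day 12, against 1.54, 1.55 and 1.80 RPKM with shNT. At day 4 CD36 had 9.34, 6.96 and 11.3 RPKM with hairpin 64, against 3.26, 2.04 and 5.83 RPKM with shNT. Here the hairpin 64 level was higher at day 12, though close, with 11.5 RPKM the lowest there and 11.3 the highest at day 4. The shNT level was lower at day 12, and the difference between days was 1.14 ± 0.14 (limma, adjusted p = 0.0047). SIGLEC1, the macrophage sialoadhesin, gave 2.1 at day 12 and 0.62 at day 4. TREM2, a lipid-sensing macrophage receptor, gave 2.87 and 1.84, and the complement component C3 gave 2.32 and 1.22.

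Secreted and granule proteins followed. LYZ, lysozyme, had 3912, 3643 and 3758 RPKM with hairpin 64 at day 12, against 731, 791 and 883 RPKM with shNT. At day 4 LYZ had 3809, 3796 and 3626 RPKM with hairpin 64, against 1466, 1482 and 1006 RPKM with shNT. The hairpin 64 levels of LYZ were alike at both days and the shNT level was lower at day 12, and its responses of 2.24 and 1.53 differed by 0.71 ± 0.14 (limma, adjusted p = 0.019). MPO, the myeloperoxidase of azurophil granules, had 72.2, 68.9 and 86.0 RPKM with hairpin 64 at day 12, against 7.36, 8.10 and 6.21 RPKM with shNT. At day 4 MPO had 104, 126 and 22.1 RPKM with hairpin 64, against 16.6, 18.2 and 3.26 RPKM with shNT. Its response was 3.22 at day 12 and 2.58 at day 4, and the difference was not called without the number 3 pair (0.57). S100A9, a calprotectin subunit, had 39.4, 33.9 and 33.8 RPKM with hairpin 64 at day 12, against 5.255, 4.16 and 4.71 RPKM with shNT. At day 4 S100A9 had 106, 89.7 and 14.7 RPKM with hairpin 64, against 43.8, 43.5 and 14.2 RPKM with shNT. The level of S100A9 was thus lower at day 12 in both groups, except against the number 3 hairpin 64 library of day 4. The difference between hairpin 64 and shNT was larger at day 12, at 2.69 against 0.78. In bulk libraries like these, fewer cells of a kind and less RNA per cell cannot be told apart.

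Some responses grew downwards. RAC2, the GTPase that activates the phagocyte oxidase, had 28.7, 29.4 and 26.9 RPKM with hairpin 64 at day 12, against 71.2, 69.6 and 65.1 RPKM with shNT. At day 4 RAC2 had 54.3, 56.0 and 56.7 RPKM with hairpin 64, against 81.1, 85.7 and 96.6 RPKM with shNT. Its fall was -1.25 at day 12 and -0.64 at day 4, with no overlap at either day and a difference of -0.60 ± 0.08 (limma, adjusted p = 0.0070). ITGAM, the CD11b chain of the integrin Mac-1, had 5.04, 5.33 and 3.76 RPKM with hairpin 64 at day 12, against 17.0, 15.7 and 18.3 RPKM with shNT. At day 4 ITGAM had 7.49, 8.59 and 22.3 RPKM with hairpin 64, against 10.7, 13.3 and 43.9 RPKM with shNT. ITGAM was called at both days in all libraries and late without the number 3 pair. Of the 4 lasting responses that were smaller at day 12, IL17RE and FCGR1C were higher and LSM5, an Sm-like protein of mRNA decay and splicing, and NKD2 were lower at both days, LSM5 by -0.91 at day 12 and -1.81 at day 4.

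Late rises numbered 21. OLR1, the oxidised LDL receptor LOX-1, had 4.32, 4.80 and 3.81 RPKM with hairpin 64 at day 12, against 0.490, 0.684 and 0.641 RPKM with shNT. At day 4 OLR1 had 0.172, 0.225 and 1.94 RPKM with hairpin 64, against 0.0632, 0.192 and 2.72 RPKM with shNT. Only the number 3 pair expressed OLR1 above 1 RPKM at day 4, in both groups, and the response was 1.72 at day 12 and -0.05 at day 4, a difference of 1.78 ± 0.14 (limma, adjusted p = 0.0015) that was late without that pair too. CEACAM4, a phagocytic receptor of granulocytes, had 9.28, 9.95 and 8.63 RPKM with hairpin 64 at day 12, against 1.44, 0.861 and 1.40 RPKM with shNT. At day 4 CEACAM4 had 2.06, 2.22 and 1.29 RPKM with hairpin 64, against 1.04, 1.00 and 1.62 RPKM with shNT. In the number 3 pair hairpin 64 was below shNT, in the other pairs above it, and without that pair CEACAM4 counted as lasting and larger at day 12. The same held for S100A8, partner of S100A9, which had 9.88, 10.3 and 10.0 RPKM with hairpin 64 at day 12, against 0.850, 0.784 and 1.65 RPKM with shNT, and 38.7, 28.7 and 7.26 RPKM with hairpin 64 at day 4, against 12.9, 13.7 and 12.4 RPKM with shNT.

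SLC7A11, the cystine importer, had 5.56, 5.71 and 6.36 RPKM with hairpin 64 at day 12, against 2.14, 2.71 and 2.26 RPKM with shNT. At day 4 SLC7A11 had 0.597, 0.492 and 1.92 RPKM with hairpin 64, against 0.243, 0.348 and 1.27 RPKM with shNT, and the difference between days was 0.74 ± 0.11 (limma, adjusted p = 0.0086). PPARG, a lipid-sensing nuclear receptor of macrophages picked after its values were seen, had 2.98, 2.86 and 2.86 RPKM with hairpin 64 at day 12, against 0.884, 0.964 and 1.15 RPKM with shNT, and was not called at day 4, at 1.42, 1.32 and 2.96 RPKM with hairpin 64, against 1.10, 1.04 and 3.22 RPKM with shNT. ADAMDEC1, a metalloprotease of macrophages, differed between days by 1.24. The mast cell tryptase TPSAB1 did so by 0.92 and the mitochondrial creatine kinases CKMT1A and CKMT1B by 0.90 and 0.97, but tryptase genes and the CKMT1 pair are near-identical copies whose reads may have been split. NAV3, a microtubule-binding protein, and the small nucleolar RNA gene SNORD3C differed by 1.08 and 1.90, and SNORD3C was listed at its lowest value in all 6 day-4 libraries. RGS18, a regulator of G protein signalling, counted as lasting without the number 3 pair.

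Late falls numbered 27. MFAP4, a glycoprotein of elastic fibres, had 1.11, 1.16 and 0.901 RPKM with hairpin 64 at day 12, against 5.26, 6.07 and 5.82 RPKM with shNT. At day 4 MFAP4 was at 0.0859 RPKM or less with hairpin 64 and at 0.467 or less with shNT. MFAP4 was therefore nearly silent at day 4 in both groups, and the late fall of -1.71 was measured against a higher shNT level at day 12. GATA2, a transcription factor of stem and progenitor cells and mast cells, had 1.49, 1.43 and 1.38 RPKM with hairpin 64 at day 12, against 5.13, 5.67 and 4.69 RPKM with shNT. At day 4 GATA2 had 2.54, 3.10 and 0.931 RPKM with hairpin 64, against 2.50, 2.94 and 3.10 RPKM with shNT. Only the number 3 pair differed at day 4, and the difference between days was -1.0 ± 0.26 (limma, adjusted p = 0.040) with that pair and -1.37 without it. CERCAM, an adhesion protein of endothelium, had 5.27, 5.33 and 4.64 RPKM with hairpin 64 at day 12, against 9.95, 10.2 and 10.2 RPKM with shNT. At day 4 CERCAM had 7.65, 8.48 and 20.1 RPKM with hairpin 64, against 7.61, 8.39 and 19.9 RPKM with shNT. Within every day-4 pair CERCAM was nearly equal although the pairs differed, and the difference between days was -0.88 ± 0.07 (limma, adjusted p = 0.0015).

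Further late falls were CYP27A1, which starts the acidic pathway of bile acid synthesis (difference between days -0.91), the sugar transporter SLC45A3 (-1.05), the nectin PVRL2 (-0.80) and the Notch ligand JAG1 (-0.61), of which JAG1 was not called for the difference without the number 3 pair (-0.56). ITGAX, the CD11c integrin chain, gave -0.77 at day 12 and 0.52 at day 4, and C1orf186 -1.16 and 0.62, and both were called in opposite directions at day 12 and day 4 once the number 3 pair was left out. ENSG00000238260, an unnamed gene listed at its lowest value in 5 of the 6 day-4 libraries, differed by -1.76. FCGRT, whose intron event was transient, had an RNA level that was late: 23.9, 22.6 and 19.2 RPKM with hairpin 64 at day 12, against 31.6, 34.4 and 34.9 RPKM with shNT, and 19.1, 20.8 and 37.7 RPKM with hairpin 64 at day 4, against 16.3, 18.6 and 25.3 RPKM with shNT. Its level was chosen for mention because of the splicing event.

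**Figure D4:**
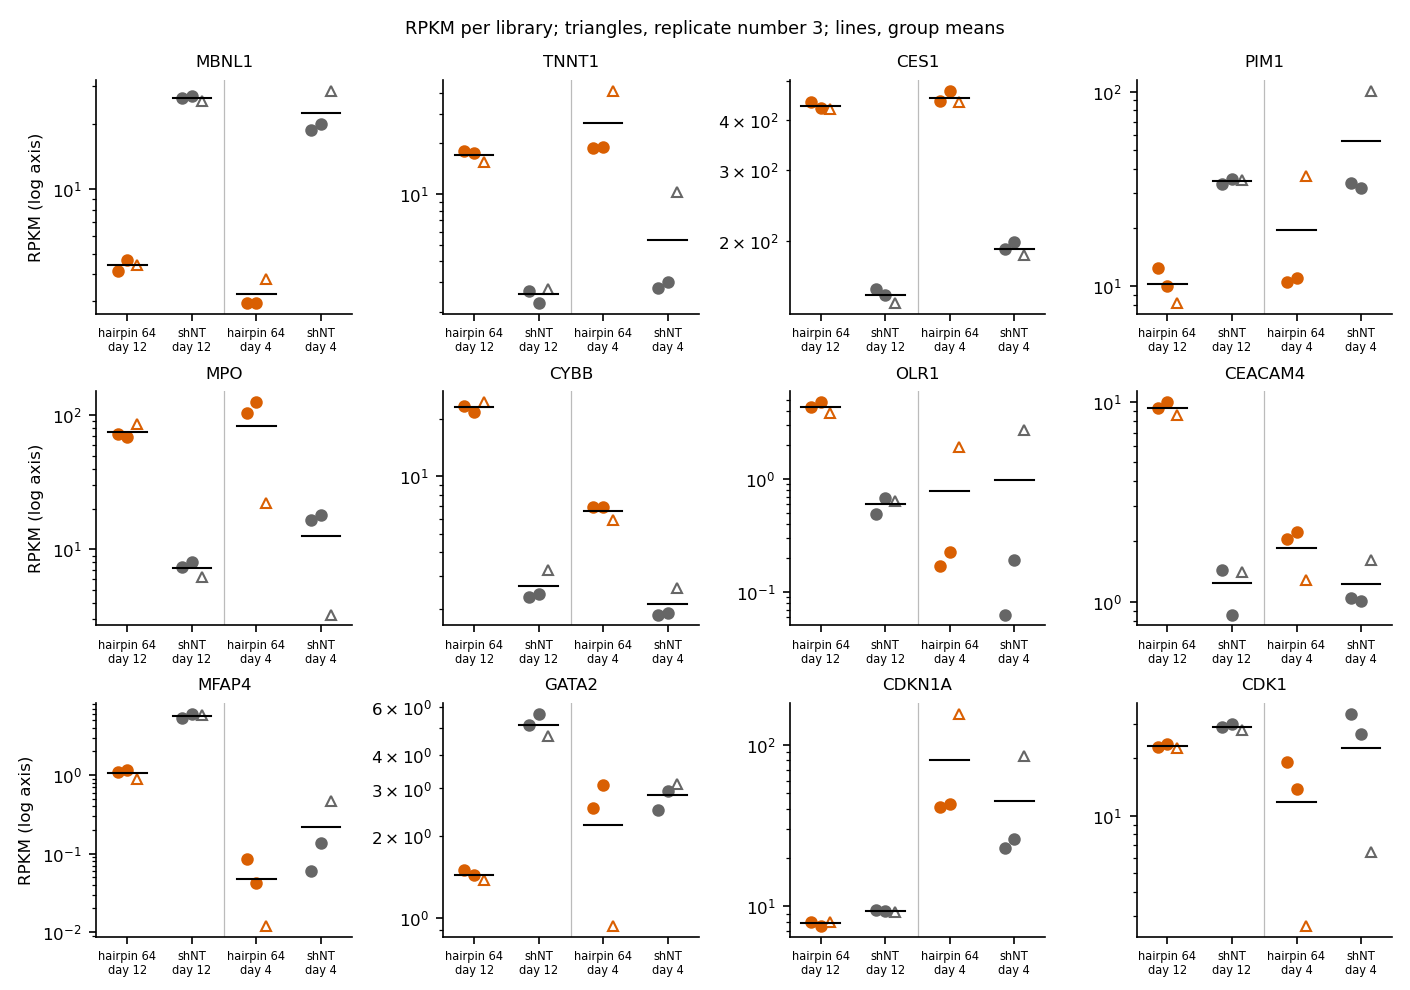
RPKM on a log axis in each of the 12 libraries for 12 genes, as points for replicate numbers 1 and 2, open triangles for number 3 and lines for group means, with hairpin 64 in orange and shNT in grey. The top row and MPO separate at both days apart from PIM1 in the number 3 pair, OLR1, CEACAM4, MFAP4 and GATA2 separate at day 12, and in CDKN1A and CDK1 the number 3 pair lies far from the other day-4 libraries.

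Transient responses were higher at day 4 for 25 genes and lower for 35. CDKN1A, the p21 inhibitor of cyclin-dependent kinases, had 7.96, 7.52 and 7.94 RPKM with hairpin 64 at day 12, against 9.42, 9.29 and 9.17 RPKM with shNT. At day 4 CDKN1A had 41.1, 43.2 and 156 RPKM with hairpin 64, against 23.1, 25.9 and 85.2 RPKM with shNT. Both groups expressed more CDKN1A at day 4 than at day 12, each pair differed the same way, and the difference between days was -1.02 ± 0.07 (limma, adjusted p = 0.00053), called without the number 3 pair as well. HMOX1, the inducible heme oxygenase, had 2.13, 2.47 and 334 RPKM with hairpin 64 at day 4, against 0.695, 0.689 and 77.9 RPKM with shNT. At day 12 it was at 0.586 RPKM or less with hairpin 64 and 0.334 or less with shNT. The number 3 pair was far above the rest of its groups in HMOX1, and the difference between days was -1.03 ± 0.27 with it and -0.65 without it. FCAR, the IgA receptor, and TREM1, an amplifier of inflammatory signalling, differed by -1.03 and -0.62, and the cytokine IL1B by -0.61, which was not called without that pair. RP11-301G19.1 was at 55.7 to 61.5 RPKM with hairpin 64 and 59.0 to 65.7 RPKM with shNT at day 12, and far lower at day 4 in both groups, at 4.14, 4.47 and 10.4 RPKM with hairpin 64, against 1.78, 2.34 and 2.66 RPKM with shNT.

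Among transient falls was VAT1L. It had 1.11, 1.30 and 1.20 RPKM with hairpin 64 at day 12, against 1.45, 0.992 and 1.20 RPKM with shNT. At day 4 VAT1L had 15.4, 17.1 and 2.93 RPKM with hairpin 64, against 47.2, 49.4 and 16.2 RPKM with shNT. VAT1L was thus low in all day-12 libraries, and its fall of -1.72 at day 4 had no counterpart at day 12, with a difference of 1.72 ± 0.17 (limma, adjusted p = 0.0024). CDK1, the kinase that starts mitosis, had 23.0, 23.7 and 22.6 RPKM with hairpin 64 at day 12, against 29.2, 30.1 and 27.9 RPKM with shNT. At day 4 CDK1 had 19.2, 13.8 and 2.65 RPKM with hairpin 64, against 34.1, 26.8 and 6.43 RPKM with shNT. CDK1 was lower with hairpin 64 in every day-4 pair and without overlap at day 12, and the difference between days was 0.59 ± 0.08, or 0.54 without the number 3 pair which is under the call size. The equilibrative nucleoside transporter SLC29A1 and the ribosomal protein gene RPL39L differed by 0.62 and 0.63, and neither was called for the difference without that pair (0.48 and 0.51). PSMB9, an immunoproteasome subunit, differed between days without passing the 1.5-fold size at either: it had 17.2, 13.9 and 13.0 RPKM with hairpin 64 at day 12, against 10.1, 8.93 and 9.57 RPKM with shNT, and 5.68, 6.04 and 8.66 RPKM with hairpin 64 at day 4, against 8.49, 8.70 and 14.7 RPKM with shNT, a difference of 1.13 ± 0.13 (limma, adjusted p = 0.0043). MYC, the proliferative transcription factor, gave 0.33 at day 12 and -0.29 at day 4, and its difference of 0.62 was not called without the number 3 pair (0.50).

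Gene lists set these single genes in context. Over all tested genes the median response was 0.04 at day 12 and near 0 at day 4, and the median difference between days 0.04. Hairpin 64 raised 3.12% of all tested genes and lowered 2.16% at day 12, and raised 4.07% and lowered 3.56% at day 4. The difference between days was called as higher at day 12 for 0.794% and as lower for 0.699%. Of 25 genes of G2/M and mitosis, 0 were called at day 12 and 17 fell at day 4, among them CCNB1, the mitotic cyclin (-0.82), TOP2A, which untangles DNA (-0.68), and the checkpoint kinases BUB1 (-0.65) and TTK (-0.68). The list's median response was -0.10 at day 12 and -0.62 at day 4, and all 25 differences between days were positive with a median of 0.53, 7 of them called. These counts rested on the number 3 pair and on the pairing. Without that pair 5 of the 25 fell at day 4 and 0 differences were called, with a median of 0.38, and without pair terms 0 fell. The list's summed level in that pair, 104 RPKM with hairpin 64 and 229 with shNT, is given above, and its part in the result was measured only by leaving the pair out. Of 25 genes of DNA replication, 1 fell at day 12 and 8 at day 4 (5 without that pair), with the replicative helicase subunit MCM6 called for the difference, though not without that pair. CDC6, the replication licensing factor, fell at both days, by -0.68 and -1.13.

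Of 10 granule genes, 8 rose at day 12 and 7 at day 4, with medians of 1.31 and 1.00, and the difference was called for S100A9, LYZ, MPO and S100A8. Among all tested genes 3.12% rose and 2.16% fell at day 12, and 4.07% rose and 3.56% fell at day 4. ELANE, neutrophil elastase, gave 0.90 and 1.02 and MMP9, a gelatinase, 1.35 and 1.18 at day 12 and day 4, without a called difference. Of 13 monocyte and macrophage surface genes 6 rose and 2 fell at day 12, and 6 rose and 1 fell at day 4. The differences ran both ways: CD36 and TREM2 rose more at day 12, and ITGAM, ITGAX and TREM1 were lower in response there. Of 15 leukocyte integrin and adhesion genes, 4 fell at day 12, including ICAM1 (-0.88) and ITGA4 (-0.66), and 2 fell and 1 rose at day 4. The blast marker list, most of which is LYZ, summed to 4055 to 4326 RPKM with hairpin 64 at day 12, against 1142 to 1299 RPKM with shNT, and to 4109 to 4316 RPKM with hairpin 64 at day 4, against 1590 to 1924 RPKM with shNT. Its 10 genes did not move together: 3 rose and 3 fell at day 12, and 3 rose and 2 fell at day 4.

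Interferon and antigen presentation lists moved mostly below the call. Of 16 interferon response genes, IFI6 and IFI27 rose at day 12, by 2.57 and 1.08, and 0 were called at day 4. Over all tested genes 3.12% rose at day 12 and 3.56% fell at day 4. The median was 0.25 at day 12 and -0.25 at day 4, 15 of the 16 differences were positive and 0 of them were called by limma. IFI6 had 353, 212 and 215 RPKM with hairpin 64 at day 12, against 41.4, 29.8 and 58.7 RPKM with shNT. At day 4 IFI6 had 104, 118 and 76.7 RPKM with hairpin 64, against 28.9, 36.6 and 146 RPKM with shNT. The number 3 shNT library was the single one above its hairpin 64 partner, and without that pair IFI6 was called at both days. Of 10 HLA class II presentation genes, CD74, the invariant chain, fell at both days (-1.08 and -1.30) and HLA-DQB1 rose at day 12 (0.80), while 4 fell at day 4 with a list median of -0.58. All 10 differences were positive, but without the number 3 pair, which held the high HLA class II levels, 5 of the genes passed the filter and 2 of 5 differences were positive. Of 19 p53 target genes, CDKN1A was the one called for the difference, and 17 differences were negative with a median of -0.17. Without the number 3 pair CDKN1A was not the only p53 target called, as a further gene reached -0.62 (limma, adjusted p = 0.0031).

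**Figure D5:**
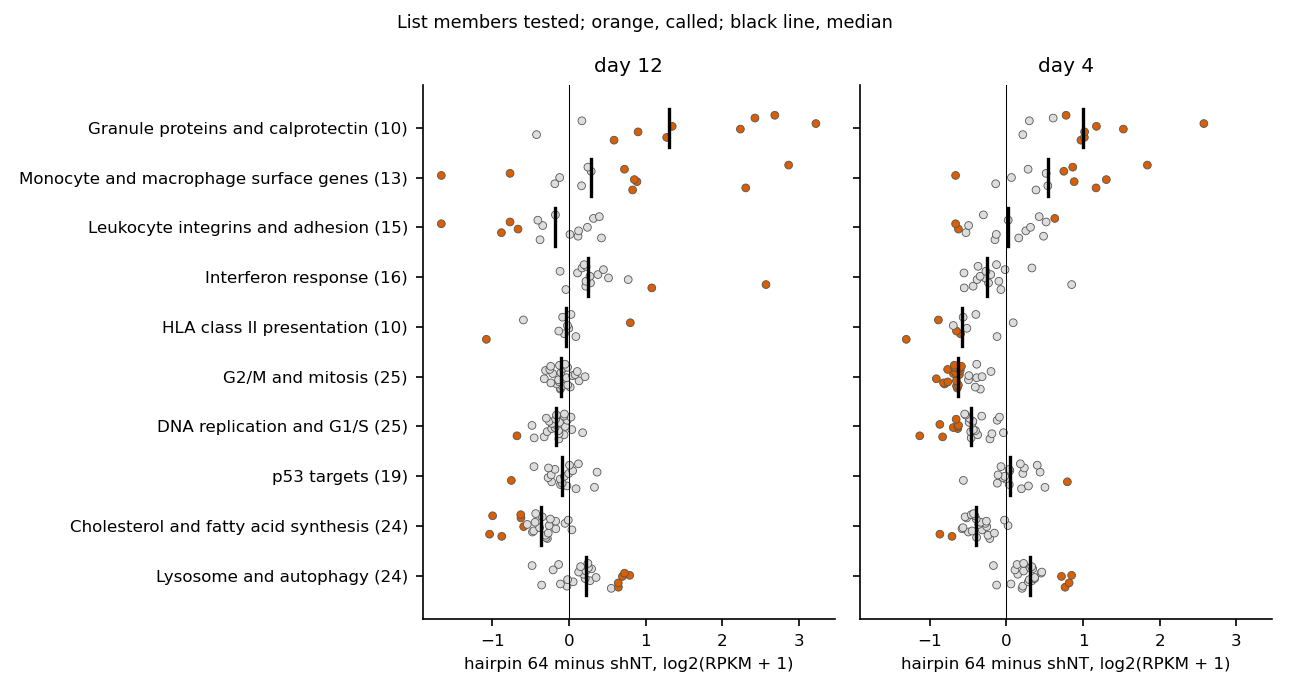
Response to hairpin 64 at day 12 (left) and day 4 (right) in log2(RPKM + 1) for the tested members of 10 gene lists, one point a gene, orange where called, with black lines at the list medians and the number of genes in brackets. The mitosis list has a median of -0.10 with 0 genes called at day 12 and of -0.62 with 17 called at day 4, whereas the granule list lies to the right at both days.

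Some lists held few called genes or none. Of 17 genes of the MLL fusion programme, FLT3, a receptor tyrosine kinase, was lower at both days (-0.80 and -1.08) and no other was called. Of 19 genes of MLL, DOT1L and SETD1 complexes, 14 BCL2 family genes and 30 cytoplasmic ribosomal proteins, 0 were called at either day. Over all tested genes 3.12% rose and 2.16% fell at day 12, and 4.07% rose and 3.56% fell at day 4. At these shares lists of this size would hold few called genes or none. Medians at day 12 and day 4 were -0.20 and -0.31 for the MLL fusion programme and -0.26 and -0.18 for ribosomal proteins. They were 0.01 and -0.02 for the complexes and 0.12 and 0.26 for the BCL2 family, against 0.04 and near 0 over all tested genes. HOXA9 gave -0.20 and 0.05 and MEIS1 -0.23 and -0.38 at day 12 and day 4, and neither was called. INF2, a formin whose exon was included less at both days (-83.2 and -80.5 points), had a lower RNA level that was called at day 12 (-0.68) and not at day 4 (-0.43), with no called difference between them (-0.25).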

How the data were processed

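RNA sequencing was measured in 12 libraries, and the authors aligned paired-end reads to GRCh37 with STAR and deposited RPKM per gene and PSI per event as a fraction between 0 and 1, made with AltAnalyze and MultiPath-PSI. The deposited RPKM values set genes without reads to a fixed low value per gene, and depth in reads is unknown. Because RPKM are not counts, log2(RPKM + 1) and PSI were fitted with limma 3.58.1 in R 4.3.3: 4 group means and pair terms for same-numbered day-4 libraries, with Benjamini-Hochberg adjustment over all 10583 genes or 70993 events tested. An event entered the fit when over 50% of every group's libraries gave a value. Intron and cassette exon events were oriented to inclusion where their junctions allowed it, and other events were kept as deposited. Where the deposited event followed the spliced or skipping junction, its PSI was replaced by the complement. The complement counts all reads that did not use that junction and can exceed the share of the inclusion junction. A cluster counted as called, or as lasting, when any of its events was. Pairs were used at day 4 because the correlation of same-numbered deviations was 0.845, 0.796 and 0.881 there for expression, against -0.101, -0.0354 and -0.0542 at day 12. The paired numbers come from the labels; no source says that they share a culture or a day, so p-values may measure technical spread only. Genes were named by size of response within each class and by fixed lists, and the members and lists were chosen with earlier results of these data known. Names came from the splicing file for 12993 of 22391 genes and from a reference table for 8877, and 521 stayed unnamed. Sequences were read from GRCh37, where 87.4% of 47678 junctions met annotated exon ends on both sides. The fits were tested on simulated data. Some members of the lists are not reported here. The alternatives were other pairings, pseudocounts, filters, scalings and left-out libraries, and leaving out the number 3 pair was chosen after seeing the data.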

Additional observations from a re-analysis of the deposited data

Results flagged for a closer look

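The test of the difference between days (limma, adjusted over all features) was called for 158 genes and 21 splicing clusters. A subset is listed here, namely 36 of the 47 called genes examined by name and 7 splicing events. Their difference was also called without the shallowest pair of day-4 libraries, a filter chosen after seeing the data. Events also had to be measured in all 12 libraries, with a single event kept per cluster. The listed features were called in both of these fits, which share most of their libraries and are not independent. The calls depended on the pairing: with pair terms at both days 103 genes and 0 splicing clusters were called. Without pair terms 4 genes and 12 clusters were. SNORD3C and ENSG00000238260 were listed at their lowest value in all or most day-4 libraries. Day and sequencer cannot be told apart in any listed feature. On the log2(RPKM + 1) scale, as day 12 minus day 4, the response was higher at day 12 for SNORD3C (1.90), S100A9 (1.91), CEACAM4 (1.85), S100A8 (1.81), OLR1 (1.78), VAT1L (1.72), CYBB and SIGLEC1 (1.47 each), ADAMDEC1 (1.24), CD36 (1.14), PSMB9 (1.13), NAV3 and ENSG00000231486 (1.08 each), IGKV2-28 (1.00), CKMT1B (0.97), TPSAB1 (0.92), CKMT1A (0.90), SLC7A11 (0.74) and LYZ (0.71). It was lower at day 12 for C1orf186 (-1.78), ENSG00000238260 (-1.76), MFAP4 (-1.50), ITGAX (-1.29), RP11-301G19.1 (-1.19), SLC45A3 (-1.05), FCAR and HMOX1 (-1.03 each), CDKN1A (-1.02), GATA2, ITGAM and DCUN1D3 (-1.0 each), CYP27A1 (-0.91), CERCAM (-0.88), PVRL2 (-0.80), TREM1 (-0.62) and RAC2 (-0.60). VAT1L, IGKV2-28 and ENSG00000231486 are higher here because their fall was at day 4.

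In splicing the difference was -68.0 points for FCGRT, -18.8 for DYNC1I2, -18.1 for YBX3, -16.9 for RELT, -15.6 for IKBKG, 11.2 for CAPN10 and -10.0 for ARHGEF1.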

How the results depend on the processing

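No called value changed sign under an alternative run, but values that were not called could: without the number 3 pair the difference between days kept its sign in 227 of 276 lasting genes. Without the replicate block, that is without pair terms, 4 genes were called for the difference between days, 3 were late, 0 transient and 147 lasting, and 12 splicing clusters were called for the difference. With the replicate block at both days the counts were 103 genes for the difference and 36 transient, and 0 splicing clusters for the difference and 108 lasting. A pseudocount of 0.1 gave 280 genes for the difference, 114 transient and 534 lasting, and no filter on low values gave 77, with 26 late and 27 transient. For splicing, an unadjusted p under 0.01 gave 595 clusters for the difference and 441 lasting, events measured in all 12 libraries gave 6 for the difference, the arcsine scale 32, and a size over 20 points 8 for the difference and 141 lasting. Leaving out 1 library at a time gave 116 to 231 genes for the difference, 36 to 56 late, 40 to 114 transient and 265 to 294 lasting, a MBNL1 difference between days of 0.02 to 0.17, and 11 to 55 splicing clusters for the difference and 141 to 196 lasting. Transient genes were 114 without hairpin 64 replicate 2 of day 4 and 112 without shNT replicate 2 of day 4. Splicing differences were 45 without hairpin 64 replicate 3 and 11 without shNT replicate 2 of day 12, and at day 4 52 without hairpin 64 replicate 1, 48 without its replicate 3, 55 without shNT replicate 1 and 35 without its replicate 2. Lasting clusters were 143 without hairpin 64 replicate 1 and 141 without shNT replicate 1 of day 12. Leaving out a day-4 library also removes its partner from the paired day-4 response. The cause of these changes was not tested. Depth in reads is unknown, and the number 3 pair was the shallowest.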

Other observations

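Of 24 genes of cholesterol and fatty acid synthesis, 6 fell at day 12: the transcription factors SREBF1 (-1.0) and SREBF2 (-0.63), their retention factor INSIG1 (-0.59), the sterol reductase DHCR7 (-0.88) and the desaturases FADS2 (-1.04) and SCD (-0.63). At day 4 DHCR7 (-0.71) and FADS2 (-0.87) fell. The share of all tested genes that fell was 2.16% at day 12 and 3.56% at day 4. The list median was -0.37 at day 12 and -0.39 at day 4, against 0.04 and near 0 over all tested genes, and 0 differences between days were called by limma. Without the number 3 pair of day 4 SREBF1 was called for the difference (-0.77, limma, adjusted p = 0.0072) and counted as late. Of 24 lysosome and autophagy genes tested, 4 were lasting, against 2.62% of all tested genes, and all 4 rose: the protease CTSD (0.64 and 0.82), the progranulin gene GRN (0.79 and 0.85), the galactosidase GLB1 (0.70 and 0.72) and the proton pump subunit ATP6V0D1 (0.65 and 0.77, each at day 12 and day 4).

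Of 23 genes of amino acid supply and stress, the cystine importer SLC7A11 rose at day 12 (1.03), while the asparagine synthetase ASNS (-0.79), the serine synthesis enzymes PSAT1 (-0.90) and PHGDH (-0.75) and the stress factor XBP1 (-0.92) fell at day 4. CHAC1, which degrades glutathione, fell at both days (-0.81 and -0.68). The share of all tested genes that rose at day 12 was 3.12%, and 2.16% fell at day 12 and 3.56% at day 4. The difference between days was called for SLC7A11 and for PHGDH (0.67).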
